A study of Mus with 9 samples.

Results

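The genes described here are 55 members of the TGF-β and BMP pathway, taken by gene name from a written list out of the 54532 genes in a table of kidney RNA sequencing. The kidneys came from male C57BL/6 mice, with 3 mice and 1 library per mouse in each of 3 groups. All mice lost 1 kidney by unilateral nephrectomy at 18 months of age. The mice of the 18 mo group were killed 1 week after surgery. Those of the 21 mo group received saline, and those of the 21 mo/O304 group received O304, a small-molecule activator of the energy-sensing kinase AMPK, at 10 mg/kg/day by intraperitoneal injection for 12 weeks. Age, time after surgery and the injections differed together between the 18 mo group and both other groups, so they cannot be told apart. The comparison of 21 mo/O304 with 21 mo asks what O304 did in kidneys of the same age.

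TGF-β ligands are secreted in a latent form, held in the matrix by latent TGF-β binding proteins, and once released they join type I and type II receptors that phosphorylate Smad2 and Smad3. BMP ligands act through related receptors on Smad1, Smad5 and Smad9, and both branches share Smad4, a partner in the complexes that act in the nucleus. Extracellular antagonists, inhibitory Smads and nuclear co-repressors restrain the signal. In the kidney the TGF-β branch is known for fibrosis, whereas BMP7, made by tubules of the adult kidney, is known for opposing it.

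The counts on genes summed to between 15636378 and 18396725 per library, and 1 count was worth between 0.0458 and 0.0669 CPM (counts scaled by library size). Of the 55 members, 53 passed the filter on low counts and were tested, with Inhba and Tgif2 left out. Among the tested members 48 exceeded the filter's level of 0.588 CPM in all 9 libraries, and Tgfb2, Bmp3, Grem1, Nog and Fst did so in only some of them. Grem1 exceeded it in 1 library at 18 mo and in all 3 at 21 mo, so its presence among the tested genes depended on the groups where it was high. The libraries of the 21 mo group stood apart from each other, with a biological coefficient of variation of 44.1% against 18.1% at 18 mo and 20.6% with O304. All 10 proximal tubule markers, which define the main cell type of the kidney, were detected in every library. Their summed level was 31194 to 38521 CPM at 18 mo and 36435 to 41983 CPM with O304. In replicates 1 to 3 of the 21 mo group it was 30883, 8089 and 1658 CPM. In a whole-kidney sample, fewer cells of a type and less RNA per cell cannot be told apart.

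Per length of transcript, the members were of ordinary abundance. Their mean FPKM (a count scaled by gene length and library size) over the 9 libraries ran from 0.1003 for Tgif2 to 112 for Id2, with a median of 4.12 against 3.91 over all tested genes, and 31 of the 55 lay above the latter. Highest after Id2 were Id3 at 41.0, the co-receptor gene Eng at 32.2, Id1 at 26.6 and Bmp6 at 23.9 FPKM. The Id genes encode inhibitors of DNA binding that BMP signals induce. Eng lies across Fpgs and Bmp6 across Txndc5, both expressed genes on the other strand. Strand use in the counting is not given in the sources used here, so reads of such partners may be mixed. This holds to some degree for the 26 members that overlap another annotated gene, 20 of them on the other strand.

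**Figure D1:**
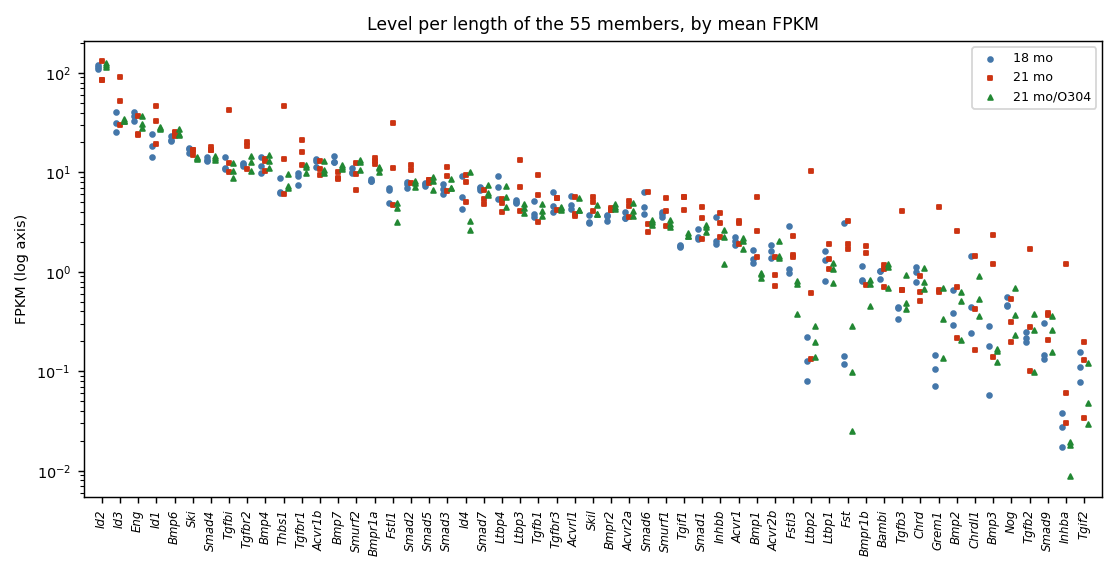
FPKM (log axis) of each of the 55 members in each of the 9 libraries, ordered from left to right by the mean over libraries. Circles are 18 mo, squares 21 mo and triangles 21 mo/O304 libraries. Members range from Id2, with a mean of 112, to Tgif2, with a mean of 0.1003, and single 21 mo squares lie far above the other points for Ltbp2, Thbs1, Fstl1, Grem1 and Inhba.

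In 21-month-old against 18-month-old kidneys, 39 of the 53 tested members had a higher mean level and 14 a lower one. Their median log2 fold change was 0.34, against 0.03 over all tested genes. Only Tgif1 passed the threshold of an adjusted p under 0.05 by edgeR's quasi-likelihood test, and it rose. It was among 3 such genes of the 15902 tested (0.0189%). The count in edgeR was 0 with only the 6 libraries compared, with the replicate block, when any 1 of the 18 mo libraries was left out, when replicate 2 at 21 mo was left out, and when replicate 1 or 2 with O304 was left out. It was 23 with replicate 1 at 21 mo left out, where 25.4% of all genes were called. DESeq2 called 12 members, among 7.29% of the genes it tested, and limma voom with quality weights called 33, among 52.9% of all genes. The DESeq2 shares, here and below, are over every gene with at least 1 count, including those left without an adjusted p. That set is wider than the 15902 genes, so these shares cannot be set directly beside the others. At an unadjusted p under 0.05, 16 members were higher (30.2% of the tested members, against 14% of all tested genes) and 2 were lower (3.77% against 12%). The libraries of both groups did not overlap for 8 members that were higher in the 21 mo group, or 15.1%, which was close to the 13.5% of all genes. They did not overlap for 1 member that was lower, or 1.89%, against 15.3% of all genes. The 18 members at an unadjusted p under 0.05 became 29 when replicate 1 at 21 mo was left out (40.2% of all genes) and 11 when replicate 2 at 18 mo was left out (16.4%). These counts are a description, since members above the filter in only some groups are among them.

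In O304-treated against saline-treated kidneys of 21 months, 38 of the 53 members were lower and 15 higher. The median log2 fold change was −0.33, against −0.02 over all tested genes. No member passed the adjusted threshold in edgeR, and neither did any of the 15902 genes (0%). DESeq2 called 5 members (3.36% of the genes it tested), limma voom with quality weights called 26 (41.1% of all genes), and limma-trend on FPKM called 0. Without replicate 1 of the 21 mo group edgeR called 22 members, among 23.1% of all genes. At an unadjusted p under 0.05 by edgeR, 16 members were lower (30.2%, against 12.4% of all genes) and 2 were higher (3.77% against 8.27%). Libraries did not overlap for 8 members with lower levels (15.1% against 10.5%) and for 1 with a higher level (1.89% against 10.8%). The 18 members at that p became 32 when replicate 1 at 21 mo was left out (38.7% of all genes), and 11 when replicate 3 at 21 mo (14.1%) or replicate 3 with O304 (12.3%) was left out. Both comparisons use the same 21 mo libraries, so opposite signs in them are not independent of each other.

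Between the 21 mo/O304 and 18 mo groups, 26 members were higher and 27 lower, with a median log2 fold change of −0.00 against 0.00 over all tested genes. edgeR called 0 members at the adjusted threshold (0% of all genes), DESeq2 called 0 (0.446% of the genes it tested) and limma voom with quality weights called 1 (2.61%). At an unadjusted p under 0.05 there were 3 higher members (5.66% against 4.33% of all genes) and 4 lower members (7.55% against 5.33%). Without overlap there were 6 higher (11.3% against 13.2%) and 7 lower members (13.2% against 13.3%), all of them shares near those of all genes. The 7 members at that p became 2 when replicate 1 at 18 mo was left out (5.76% of all genes), 3 when replicate 2 (5.68%) or 3 (7.06%) with O304 was left out and 12 when replicate 3 at 21 mo was left out (15.3%). They became 16 with only the 6 libraries compared (20.3% of all genes), a fit without the spread of the 21 mo group.

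The 21 mo group was not uniform for these genes. Relative to the 18 mo mean, the median deviation of the members on the log2 CPM scale was −0.09 in replicate 1, 0.37 in replicate 2 and 0.68 in replicate 3, while it lay between −0.11 and 0.08 in the other 6 libraries. Replicate 3 was the highest of all 9 libraries for 26 members (49.1%), compared with 28.9% of all tested genes. The same libraries differed in cell markers. The summed level of the 10 fibroblast and pericyte markers was 166, 642 and 1432 CPM in replicates 1 to 3, against 228 to 319 CPM at 18 mo and 140 to 297 CPM with O304. For the 10 macrophage markers it was 783, 1222 and 3757 CPM, against 309 to 522 and 579 to 627 CPM. For the 8 markers of injured tubule it was 1416, 12477 and 14748 CPM, against 786 to 915 and 784 to 1194 CPM. No marker of these lists was at 0. The summed level of the 9 adipocyte markers, most of it from Lpl, the lipoprotein lipase gene, was 719 to 1387 CPM at 18 mo, 178 to 549 CPM at 21 mo and 1110 to 1329 CPM with O304. Of this list 6 markers were tested, and their median log2 fold change was −0.44 in 21 mo against 18 mo, 4.64 in O304 against 21 mo and 4.40 in O304 against 18 mo. Adipoq, which encodes adiponectin, had 0, 0 and 25 counts at 18 mo, 1, 0 and 11 at 21 mo and 372, 33 and 237 with O304. The part of cell composition in the members' levels was not tested. Without replicate 3 the median log2 fold change against 18 mo was 0.15 and that of O304 against 21 mo was −0.16, and without replicate 1 they were 0.51 and −0.53.

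**Figure D2:**
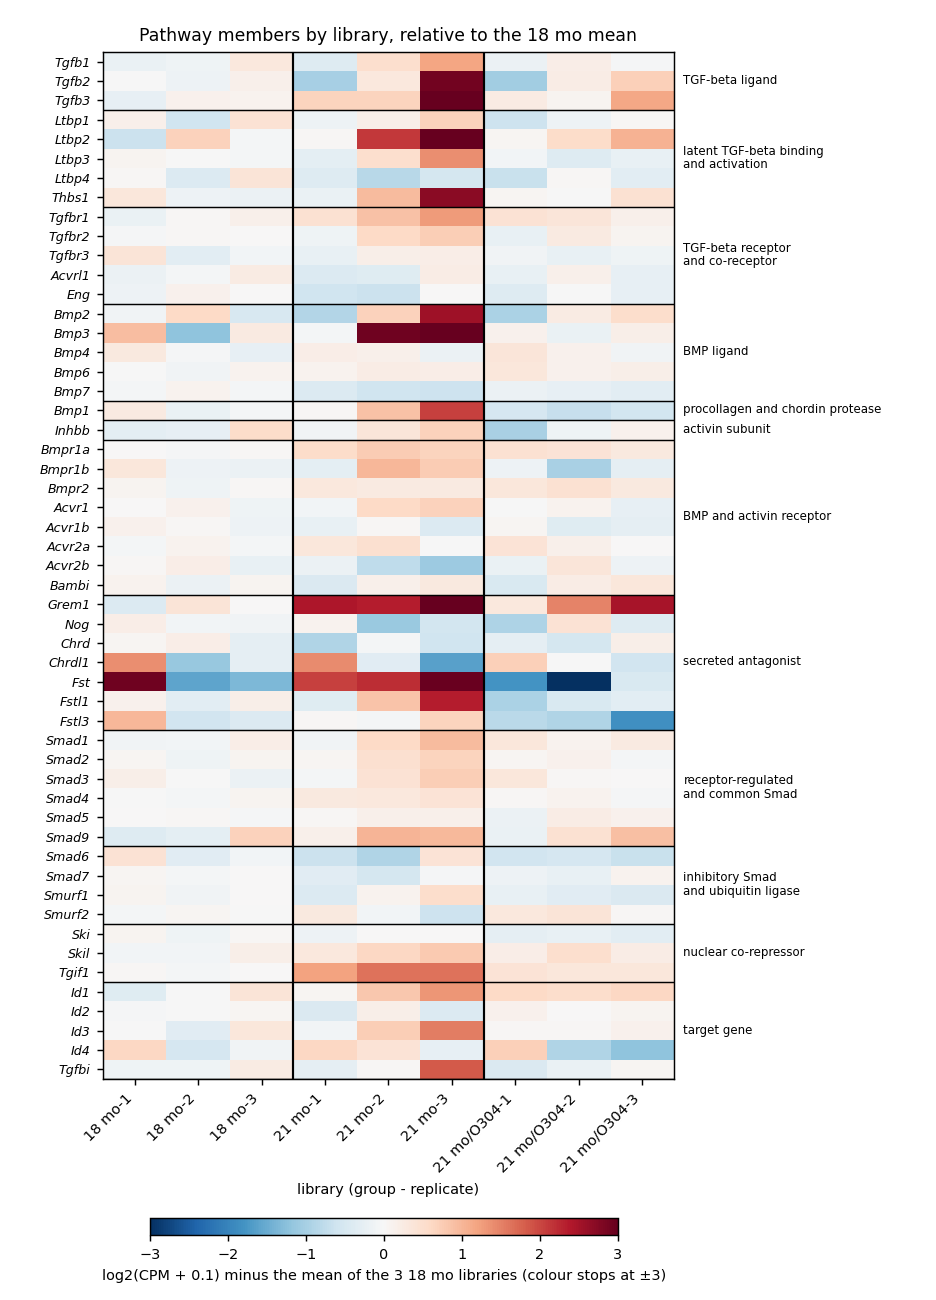
Colour gives log2(CPM + 0.1) of each of the 53 tested members (rows, grouped by role) in each library (columns) minus the mean of the 3 libraries of the 18 mo group, with red for higher and blue for lower and the scale stopped at 3 on either side. Replicate 3 of the 21 mo group is red for most rows and replicate 1 is close to the 18 mo libraries for most, while Tgif1, Grem1 and Tgfbr1 are red in all 3.

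Tgif1 showed the clearest change. It encodes a homeodomain protein that binds Smad2 and Smad3 and recruits co-repressors, and it lies on chromosome 17 from 70844205 to 70853546 on the minus strand (GRCm38). Its level was 10.9, 10.2 and 10.6 CPM in replicates 1 to 3 at 18 mo, 24.4, 33.0 and 32.8 CPM at 21 mo, and 14.1, 13.3 and 13.3 CPM with O304. All 21 mo libraries stood above all others, replicate 1 included, and the O304 libraries lay between the other groups without overlap. Tgif1 rose 2.85-fold in 21 mo against 18 mo kidneys, a log2 fold change of 1.51 ± 0.15 (SE, edgeR adjusted p = 0.0202). With O304 the log2 fold change against 21 mo was −1.15 ± 0.15 (SE, edgeR adjusted p = 0.150), and O304 against 18 mo gave 0.36 ± 0.15 (SE, edgeR adjusted p = 0.478). In 21 mo against 18 mo its log2 fold change was between 1.12 and 1.66 in 19 alternative settings, with adjusted p between 2.58e-13 and 0.210. The call was lost with only the 6 libraries compared, at 1.53 (adjusted p = 0.177, edgeR), and with the replicate number as a block (adjusted p = 0.101, edgeR). It was also lost without any 1 of the 18 mo libraries, at 1.48 to 1.53, without replicate 2 of the 21 mo group, at 1.42, and without replicate 1 or 2 of the 21 mo/O304 group, at 1.53 each.

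The other co-repressors were Ski and Skil, whose proteins bind Smad complexes and silence their targets. Skil, itself a gene that TGF-β induces, was measured at 31.0, 31.0 and 37.3 CPM at 18 mo, 41.2, 50.8 and 56.7 CPM at 21 mo, and 37.9, 46.7 and 38.4 CPM with O304. Every library of both older groups exceeded every 18 mo library. Its log2 fold change was 0.58 ± 0.15 (SE, edgeR adjusted p = 0.0810) in 21 mo against 18 mo and −0.27 ± 0.15 (SE, adjusted p = 0.315) with O304. Ski held 102, 88.4 and 99.0 CPM at 18 mo, 86.1, 97.2 and 97.7 CPM at 21 mo and 80.4, 82.5 and 77.5 CPM with O304. The O304 libraries were the lowest 3 of the 9, yet the difference from 21 mo was only −0.22 on the log2 scale (SE 0.11, adjusted p = 0.269, edgeR). Tgif2, the close relative of Tgif1, had between 2 and 17 counts per library and was not tested.

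**Figure D3:**
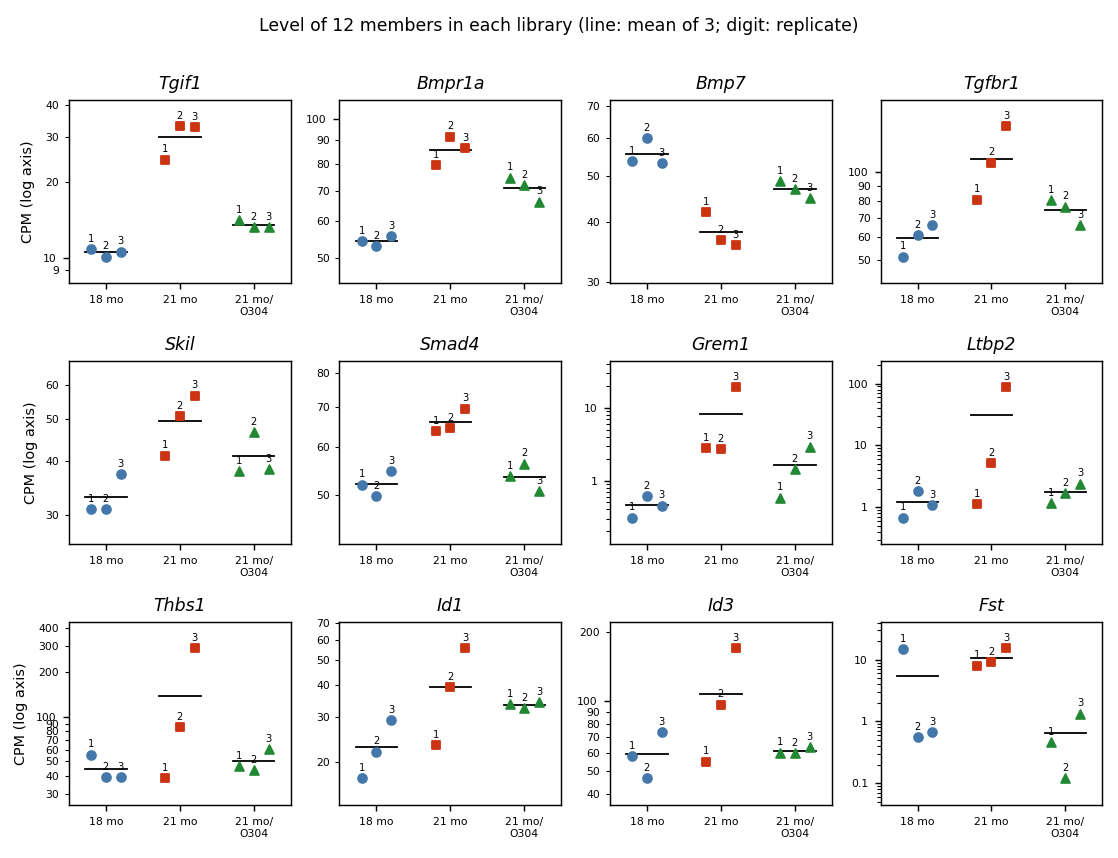
CPM (log axis, a separate scale in each panel) of 12 members in each library, with digits for the replicate and a line for the mean of the 3 libraries. Tgif1, Bmpr1a and Bmp7 separate the 3 groups without overlap, while Ltbp2 and Thbs1 are far above the others in replicate 3 of the 21 mo group only.

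Among the TGF-β ligands, Tgfb1 made up most of the expression. It supplied 86.9% ± 1.31 of the summed FPKM of the 3 ligand genes at 18 mo, 76.3% ± 12.8 at 21 mo and 83.1% ± 6.43 with O304 (SD, n = 3 each). Its level was 18.8, 19.8 and 26.7 CPM at 18 mo, 16.3, 30.5 and 49.0 CPM at 21 mo, and 18.9, 24.7 and 21.1 CPM with O304. Replicate 1 of the 21 mo group was the lowest of all libraries and replicate 3 the highest. Tgfb1 had a log2 fold change of 0.56 ± 0.34 (SE, edgeR adjusted p = 0.321) in 21 mo against 18 mo and −0.57 ± 0.34 (SE, adjusted p = 0.345) with O304. Tgfb3, which overlaps the expressed gene Ttll5 on the other strand, was at 1.18, 1.54 and 1.53 CPM at 18 mo, 2.27, 2.27 and 14.3 CPM at 21 mo and 1.69, 1.49 and 3.25 CPM with O304. All 21 mo libraries exceeded the 18 mo libraries, and replicate 3 carried most of the difference. Tgfb3 had a log2 fold change of 2.15 ± 0.73 (SE, edgeR adjusted p = 0.117) and 0.66 without that library. Tgfb2 held 1.30, 1.17 and 1.47 CPM at 18 mo, 0.602, 1.65 and 10.3 CPM at 21 mo and 0.582, 1.55 and 2.23 CPM with O304, so only replicate 3 of the 21 mo group stood out.

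Genes listed under latent TGF-β binding and activation included the 4 Ltbp genes, and which of these predominated differed between libraries. Ltbp2, an elastic matrix gene that belongs by name to the latent TGF-β binding protein family, stood at 0.681, 1.85 and 1.07 CPM at 18 mo. It was at 1.14, 5.17 and 87.1 CPM at 21 mo and 1.16, 1.67 and 2.42 CPM with O304. Binding of latent TGF-β by its product was not measured. Replicate 1 of the 21 mo group lay within the range of the other groups. The log2 fold change against 18 mo was 4.69 ± 1.38 (SE, edgeR adjusted p = 0.0918), and 1.38 without replicate 3. Ltbp2 made up 33.8% of the summed FPKM of the 4 Ltbp genes in that library, against 0.574% to 4.65% in the other 8. Ltbp4, another gene of this family, gave a log2 fold change of −0.61 ± 0.24 (SE, edgeR adjusted p = 0.154). The share of Ltbp4 was 52.4% ± 5.67 at 18 mo, 32.3% ± 17.3 at 21 mo and 50.5% ± 7.55 with O304 (SD, n = 3 each). In replicates 1 to 3 at 21 mo it was 50.5%, 30.4% and 16.2%, with replicate 1 inside the 18 mo range. Ltbp3 held 28.7, 26.8 and 26.1 CPM at 18 mo, 22.1, 38.6 and 71.4 CPM at 21 mo and 25.7, 20.7 and 23.4 CPM with O304, and its counts are uncertain because of a gene overlap. With O304 its log2 fold change against 21 mo was −0.92 ± 0.34 (SE, edgeR adjusted p = 0.200), and −0.37 without replicate 3 of the 21 mo group. Thbs1 encodes thrombospondin 1, which can free TGF-β from its latent complex. It stood at 55.6, 39.4 and 39.1 CPM at 18 mo, 38.3, 85.4 and 290.2 CPM at 21 mo and 46.2, 43.7 and 60.8 CPM with O304. Replicate 1 of the 21 mo group had the lowest level of all libraries and replicate 3 the highest. Thbs1 had a log2 fold change of 1.63 ± 0.60 (SE, edgeR adjusted p = 0.137) in 21 mo against 18 mo, and 0.45 without replicate 3. Ltbp1 ranged from 8.37 to 20.9 CPM with all groups overlapping.

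Of the 5 TGF-β receptors and co-receptors, Tgfbr1 differed most. It encodes the type I receptor kinase and lies on chromosome 4 from 47353222 to 47414931 on the plus strand. Its level was 51.5, 60.8 and 66.1 CPM at 18 mo, 80.6, 108 and 144 CPM at 21 mo and 80.4, 76.3 and 66.0 CPM with O304. All 21 mo libraries exceeded those of both other groups, although replicate 1 did so only narrowly over replicate 1 of the O304 group. The log2 fold change was 0.90 ± 0.21 (SE, edgeR adjusted p = 0.0697) in 21 mo against 18 mo and −0.58 ± 0.20 (SE, adjusted p = 0.192) in O304 against 21 mo, the latter −0.34 without replicate 3 at 21 mo. Tgfbr2, the type II receptor gene, was at 98.5, 104 and 103 CPM at 18 mo, 92.4, 154 and 170.3 CPM at 21 mo and 87.1, 122 and 108 CPM with O304. Its 21 mo libraries lay on both sides of the 18 mo libraries, with a log2 fold change of 0.45 ± 0.22 (SE, edgeR adjusted p = 0.233). Replicate 1 at 21 mo was within the O304 range. Eng encodes endoglin, a co-receptor of endothelial cells. It held 139, 167 and 155 CPM at 18 mo, 101, 98.4 and 155 CPM at 21 mo and 117, 152 and 128 CPM with O304, a log2 fold change of −0.38 ± 0.20 (SE, edgeR adjusted p = 0.257) in 21 mo against 18 mo. The summed level of the 10 endothelial markers was 475 to 728 CPM at 18 mo, 605, 407 and 308 CPM in replicates 1 to 3 at 21 mo and 542 to 907 CPM with O304, and its part in the level of Eng was not tested. Tgfbr3 and Acvrl1 had log2 fold changes between −0.21 and 0.06 in the 3 comparisons, and their libraries overlapped throughout.

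BMP7 is the ligand most studied in renal protection, and its gene Bmp7 was the member that was lower at 21 mo in every library. It lies on chromosome 2 from 172868012 to 172940321 on the minus strand. Its level was 53.8, 60.0 and 53.1 CPM at 18 mo, 41.9, 36.7 and 35.9 CPM at 21 mo and 48.8, 47.0 and 44.9 CPM in the 21 mo/O304 group. The 3 groups did not overlap, with O304 between the others. Bmp7 had a log2 fold change of −0.54 ± 0.11 (SE, edgeR adjusted p = 0.0626) in 21 mo against 18 mo, and −0.60 to −0.52 when any 1 of the 21 mo libraries was left out. In O304 against 21 mo it was 0.30 ± 0.11 (SE, edgeR adjusted p = 0.192), and in O304 against 18 mo −0.25 ± 0.11 (SE, adjusted p = 0.507). As a share of the summed FPKM of the 5 BMP ligand genes, Bmp7 made up 28.1% ± 2.39 at 18 mo, 19.0% ± 2.06 at 21 mo and 22.6% ± 0.922 with O304 (SD, n = 3 each). Across the 21 mo libraries Bmp7 ranged from 35.9 to 41.9 CPM, while the sum of proximal tubule markers ranged from 1658 to 30883 CPM. The sum of thick ascending limb, distal tubule and collecting duct markers was 7203, 6777 and 3431 CPM in replicates 1 to 3 at 21 mo. That sum was 4058 to 8390 CPM at 18 mo and 3159 to 5211 CPM with O304. The part of either sum in the level of Bmp7 was not tested.

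The most abundant BMP ligand gene was Bmp6, known in the liver for the control of iron. It held 86.8, 81.7 and 94.2 CPM at 18 mo, 94.0, 103 and 101 CPM at 21 mo and 110.3, 95.6 and 98.2 CPM with O304, with log2 fold changes of 0.18 ± 0.11 (SE, edgeR adjusted p = 0.330) and 0.03 ± 0.11 (SE, adjusted p = 0.882). Its share of the ligand FPKM was 45.6% ± 4.03, 50.7% ± 1.27 and 50.3% ± 1.54 in the same order (SD, n = 3 each). Bmp4 made up 24.9% to 25.9% of the sum in every group on average, and its log2 fold changes were 0.05 and 0.08. Bmp3, a member of the family that opposes BMP signals, was at 2.23, 0.431 and 1.36 CPM at 18 mo, 1.07, 9.09 and 18.2 CPM at 21 mo and 1.22, 0.954 and 1.27 CPM with O304. Only replicates 2 and 3 of the 21 mo group were high. Its log2 fold changes were 2.82 ± 0.88 (SE, edgeR adjusted p = 0.101) in 21 mo against 18 mo and −3.04 ± 0.89 (SE, adjusted p = 0.175) with O304. Bmp2 ranged from 0.756 to 2.56 CPM in 8 libraries and was 9.44 CPM in replicate 3 of the 21 mo group.

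**Figure D4:**
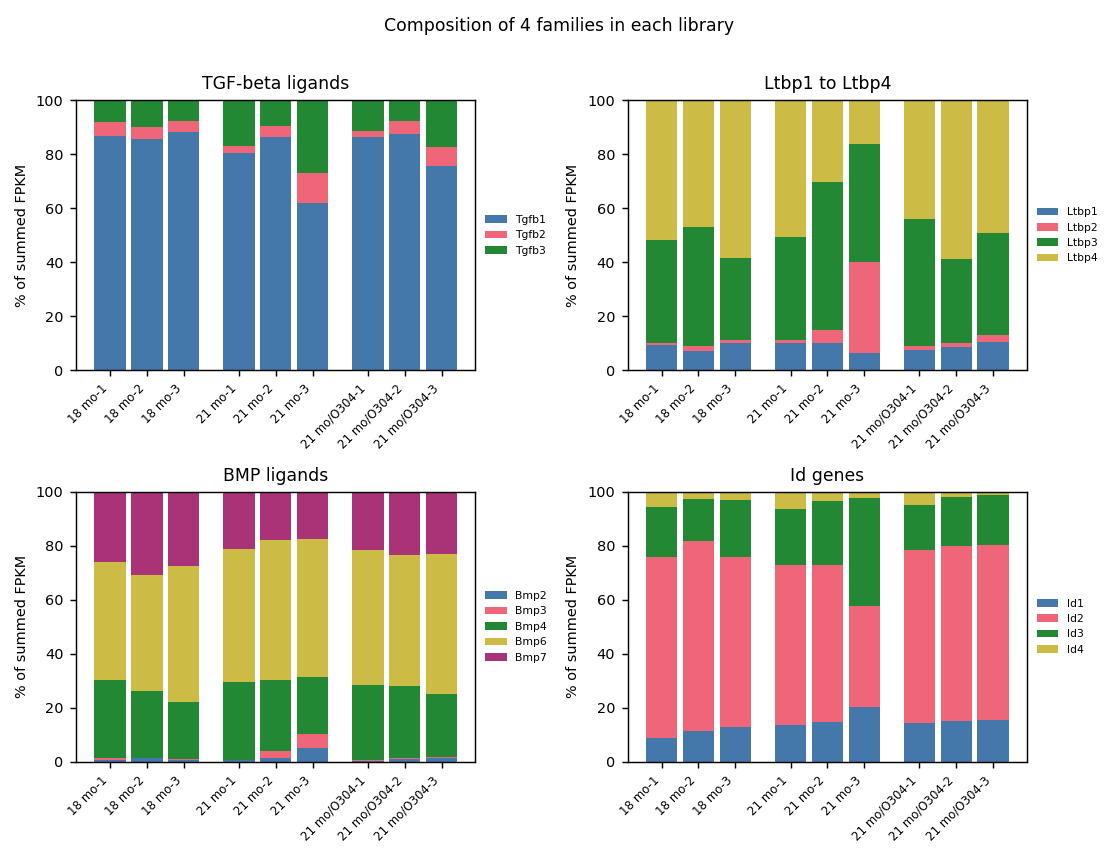
Stacked bars give the percent of the summed FPKM that each gene contributed in each library, for the 3 TGF-β ligands, the 4 latent TGF-β binding proteins, 5 BMP ligands and the 4 Id genes. Bmp7 makes up less of the BMP ligands in all 21 mo libraries, and Ltbp2, Tgfb3 and Id3 take larger shares in replicate 3 of the 21 mo group.

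The protease BMP1, despite its name, is not a ligand but cleaves procollagens and the antagonist chordin. Bmp1 stood at 15.3, 11.0 and 12.2 CPM at 18 mo, 13.0, 23.3 and 52.6 CPM at 21 mo and 8.90, 7.87 and 8.66 CPM with O304. The O304 libraries were the lowest 3 of the 9, without overlap with either other group. In O304 against 21 mo its log2 fold change was −1.81 ± 0.43 (SE, edgeR adjusted p = 0.175), and −1.09 without replicate 3 of the 21 mo group. In 21 mo against 18 mo it was 1.21 ± 0.42 (SE, edgeR adjusted p = 0.122), and 0.49 without that library. Of the activin subunit genes, Inhbb was at 8.55, 8.87 and 15.5 CPM at 18 mo, 9.83, 13.6 and 17.1 CPM at 21 mo and 5.29, 9.71 and 11.5 CPM with O304, so the groups overlapped. Inhba had 173 counts in replicate 3 of the 21 mo group and between 1 and 7 counts in the other 8 libraries, and was not tested.

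The BMP type I receptor gene Bmpr1a separated the 3 groups without overlap. It lies on chromosome 14 from 34410734 to 34503341 on the minus strand. Its level was 54.4, 52.9 and 55.8 CPM at 18 mo, 79.5, 91.7 and 86.6 CPM at 21 mo and 74.7, 72.0 and 66.2 CPM with O304. Unlike many members, it was high in replicate 1 of the 21 mo group too. Bmpr1a had a log2 fold change of 0.66 ± 0.10 (SE, edgeR adjusted p = 0.0626) in 21 mo against 18 mo, and 0.60 to 0.73 when any 1 of the 21 mo libraries was left out. In O304 against 21 mo it was −0.28 ± 0.10 (SE, edgeR adjusted p = 0.198), and in O304 against 18 mo 0.38 ± 0.10 (SE, adjusted p = 0.337). Bmpr2, the type II receptor gene of the same branch, was at 69.6, 59.6 and 67.2 CPM at 18 mo, 81.5, 78.4 and 78.9 CPM at 21 mo and 82.3, 89.3 and 79.8 CPM with O304. Both older groups lay above the 18 mo libraries and overlapped each other. Its log2 fold changes against 18 mo were 0.28 ± 0.10 (SE, edgeR adjusted p = 0.138) at 21 mo and 0.36 ± 0.10 (SE, adjusted p = 0.351) with O304. Bmpr1b, a second type I receptor gene with a lower level, held 7.12, 5.05 and 4.92 CPM at 18 mo, 4.55, 11.3 and 9.62 CPM at 21 mo and 5.06, 2.80 and 4.65 CPM with O304. Its log2 fold change was −1.02 ± 0.37 (SE, edgeR adjusted p = 0.196) in O304 against 21 mo, where the groups overlapped through replicate 1. The other receptor genes of this group, Acvr1, Acvr1b, Acvr2a, Acvr2b and the decoy receptor gene Bambi, had log2 fold changes between −0.65 and 0.44 in 21 mo against 18 mo, and the groups overlapped for each of them. In O304 against 21 mo Acvr2b had a log2 fold change of 0.67 (unadjusted p = 0.0472, edgeR), and 0.49 without replicate 3 at 21 mo. Acvr2b and Bmp7 were the 2 members higher at an unadjusted p under 0.05 in that comparison.

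Of 7 secreted antagonists, Grem1 differed most from 18 mo. It encodes gremlin 1, which binds BMP2, BMP4 and BMP7 and is known from fibrotic kidney. Its level was 0.310, 0.616 and 0.453 CPM at 18 mo, 2.81, 2.67 and 19.1 CPM at 21 mo and 0.582, 1.43 and 2.93 CPM with O304. All 21 mo libraries exceeded all 18 mo libraries, while replicate 3 of the O304 group was above 2 of the 21 mo libraries. In 21 mo against 18 mo Grem1 had a log2 fold change of 4.14 ± 0.96 (SE, edgeR adjusted p = 0.0697), and 2.54 without replicate 3. In O304 against 21 mo it was −2.33 ± 0.85 (SE, edgeR adjusted p = 0.198), and −0.73 without that library. These levels are low, and the 18 mo values rest on few counts.

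Follistatin, the product of Fst, binds activins. Fst stood at 14.9, 0.555 and 0.679 CPM at 18 mo, 8.03, 9.09 and 15.3 CPM at 21 mo and 0.465, 0.119 and 1.34 CPM with O304. The 21 mo libraries were all high and the O304 libraries all low, whereas the 18 mo group was split, with replicate 1 at the 21 mo level. Fst exceeded the filter's level in all 3 libraries only at 21 mo, in 2 at 18 mo and in 1 with O304. Its O304 values therefore rest on few counts, and so do its fold changes with O304. In O304 against 21 mo the log2 fold change of Fst was −4.08 ± 1.30 (SE, edgeR adjusted p = 0.180), and between −4.27 and −3.74 when any 1 of the 21 mo libraries was left out. In O304 against 18 mo it was −3.06 ± 1.28 (SE, edgeR adjusted p = 0.490), and the sign turned to 0.037 without replicate 1 of the 18 mo group. Fstl1, a follistatin-like glycoprotein of mesenchymal cells, was at 34.2, 24.8 and 35.2 CPM at 18 mo, 24.1, 56.6 and 160.3 CPM at 21 mo and 16.0, 22.4 and 25.1 CPM with O304. Replicate 1 of the 21 mo group was below all 18 mo libraries. Its log2 fold change was −1.93 ± 0.57 (SE, edgeR adjusted p = 0.176) in O304 against 21 mo, and −0.92 without replicate 3 of the 21 mo group. For Fstl3 the O304 libraries, at 0.955 to 2.04 CPM, lay below both the 21 mo libraries, at 3.52 to 5.86 CPM, and the 18 mo libraries, at 2.40 to 7.37 CPM. Nog, Chrd and Chrdl1, whose products trap BMPs, overlapped between all groups, with log2 fold changes between −0.51 and −0.08 in 21 mo against 18 mo.

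**Figure D5:**
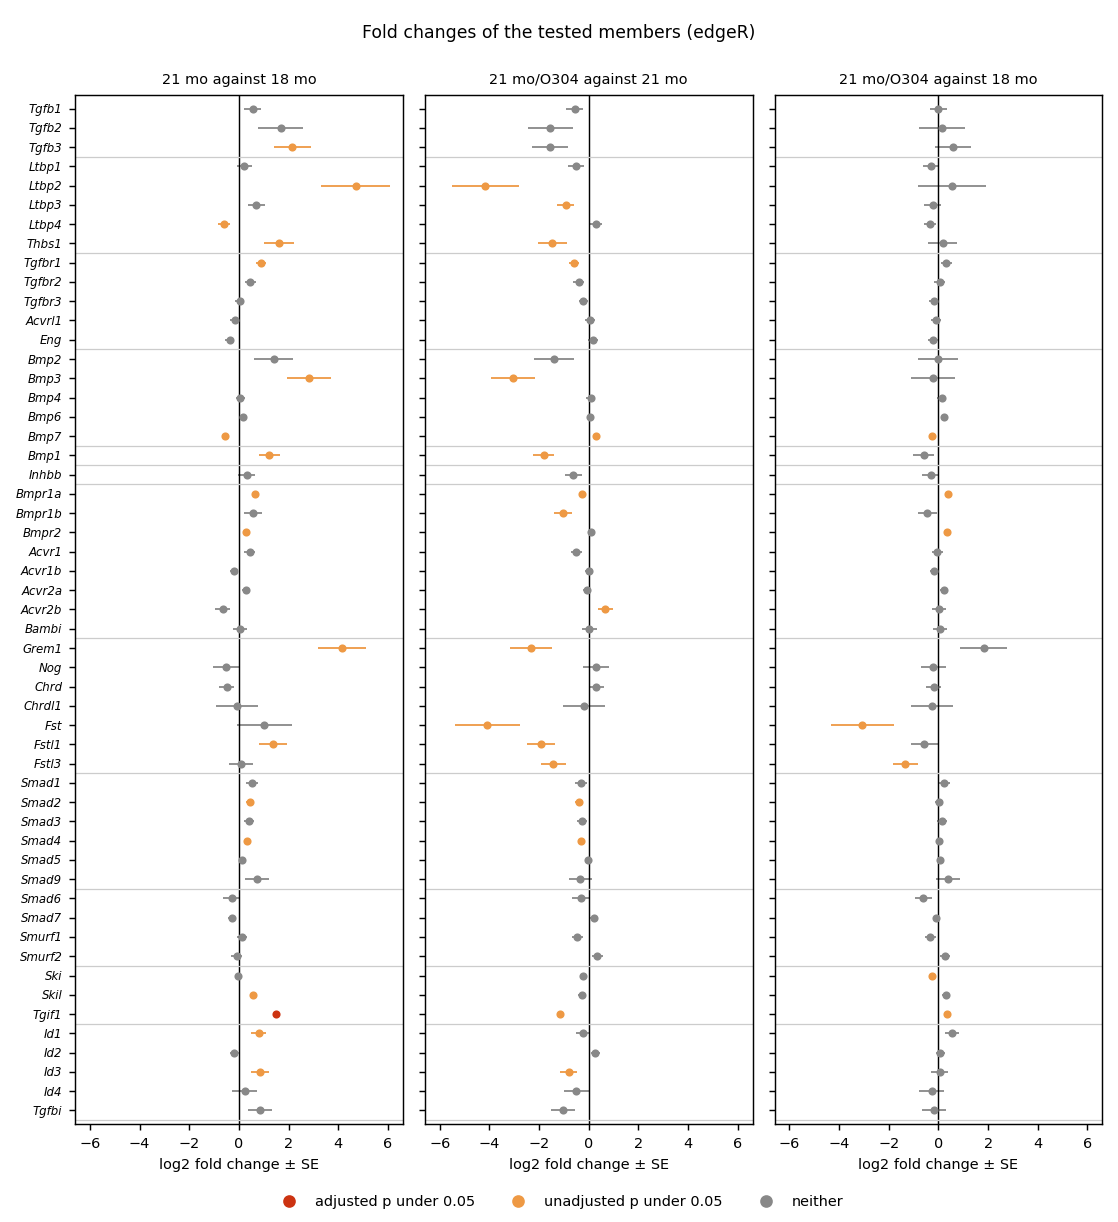
Log2 fold change of each of the 53 tested members in the 3 comparisons, with bars for the standard error and thin lines between roles. Red marks an adjusted p under 0.05, which holds for Tgif1 in 21 mo against 18 mo only, orange an unadjusted p under 0.05 and grey neither. Points of the first 2 panels share the 21 mo libraries.

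The 6 receptor-regulated and common Smads all had a higher mean at 21 mo than at 18 mo and a lower one with O304 than at 21 mo, by modest amounts. Their log2 fold changes were 0.11 to 0.72 in the former comparison and −0.39 to −0.04 in the latter, and none passed the adjusted threshold in edgeR. Smad4, the common partner of both branches, was the steadiest of them. It held 52.0, 49.7 and 54.7 CPM at 18 mo, 63.9, 64.7 and 69.7 CPM at 21 mo and 53.6, 56.3 and 50.7 CPM with O304. The 21 mo libraries lay above all others. Smad4 had a log2 fold change of 0.34 ± 0.10 (SE, edgeR adjusted p = 0.0860) in 21 mo against 18 mo and −0.30 ± 0.10 (SE, adjusted p = 0.180) with O304. Smad2, which carries the TGF-β signal, was at 28.6, 25.1 and 29.1 CPM at 18 mo, 28.9, 38.3 and 44.1 CPM at 21 mo and 28.6, 29.98 and 26.3 CPM with O304, a log2 fold change of 0.43 ± 0.16 (SE, edgeR adjusted p = 0.137) in 21 mo against 18 mo, and 0.27 without replicate 3 at 21 mo. Smad1, of the BMP branch, stood at 13.9, 14.2 and 17.3 CPM at 18 mo, 14.0, 22.7 and 29.4 CPM at 21 mo and 19.0, 16.2 and 18.1 CPM with O304. In both genes replicate 1 of the 21 mo group lay within the 18 mo range. Smad4 made up the largest share of the summed FPKM of the 6 genes, from 33.1% to 40.5% in the 9 libraries, and Smad9 the smallest, at no more than 0.920%.

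Smad6, Smad7, Smurf1 and Smurf2 encode inhibitory Smads and the ubiquitin ligases they recruit, and none of these 4 had an unadjusted p under 0.05 by edgeR in any of the 3 comparisons. Their log2 fold changes lay between −0.29 and 0.13 in 21 mo against 18 mo and between −0.46 and 0.35 with O304. Smad7, a direct target of TGF-β, was at 33.4, 30.7 and 32.7 CPM at 18 mo, 25.4, 22.3 and 31.6 CPM at 21 mo and 29.0, 27.7 and 34.6 CPM with O304. Smad6, the BMP counterpart, held 21.1, 12.3 and 14.9 CPM at 18 mo, 9.97, 8.35 and 21.0 CPM at 21 mo and 10.5, 11.1 and 9.80 CPM with O304. Neither separated 21 mo from 18 mo, and the O304 libraries of Smad6 lay below all 18 mo libraries. Smurf1 was likewise lower with O304, at 18.5 to 21.5 CPM, than at 18 mo, at 23.2 to 26.6 CPM, without overlap, with 18.9, 26.9 and 36.1 CPM at 21 mo.

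Among the target genes, Id1 and Id3 were high in the same 21 mo libraries. Id1 was at 17.3, 22.0 and 29.2 CPM at 18 mo, 23.3, 39.2 and 55.7 CPM at 21 mo and 33.7, 32.4 and 34.2 CPM with O304. The O304 libraries were close to each other and above all 18 mo libraries, and the 21 mo group spanned both. Id1 had a log2 fold change of 0.79 ± 0.29 (SE, edgeR adjusted p = 0.140) in 21 mo against 18 mo, 0.44 without replicate 3 at 21 mo, and 0.55 ± 0.29 (SE, adjusted p = 0.590) in O304 against 18 mo. Id3 held 58.0, 46.5 and 73.9 CPM at 18 mo, 54.99, 96.8 and 169.7 CPM at 21 mo and 60.1, 59.96 and 63.7 CPM with O304, so replicate 1 of the 21 mo group was within the 18 mo range. Id3 had a log2 fold change of 0.85 ± 0.35 (SE, edgeR adjusted p = 0.167), and 0.33 without replicate 3. Id2, the most abundant member, ranged from 282 to 299.5 CPM at 18 mo, 215 to 328 CPM at 21 mo and 290.2 to 318 CPM with O304, and made up 66.8% ± 3.73, 51.7% ± 12.3 and 64.6% ± 0.404 of the Id FPKM (SD, n = 3 each). Tgfbi encodes a matrix protein induced by TGF-β. It stood at 43.0, 42.6 and 55.8 CPM at 18 mo, 39.0, 47.9 and 167 CPM at 21 mo and 34.5, 40.5 and 48.7 CPM with O304, with only replicate 3 of the 21 mo group apart from the rest. Id4 ranged from 10.4 to 39.9 CPM with all groups overlapping.

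Genes of the wider pathway were read from 4 further lists. None of their genes passed the adjusted threshold in the main edgeR fit of all 9 libraries, or in limma-trend on log2(FPKM + 1). This held in 21 mo against 18 mo and in O304 against 21 mo. The other count filters and factors in edgeR were not read for these lists. The shares of all genes given above for each tool and setting are the background of their counts too. In the list of matrix and other genes known to respond to TGF-β, 25 of 26 tested genes had a higher mean at 21 mo than at 18 mo, with a median of 1.59 on the log2 scale, and 13 were higher at an unadjusted p under 0.05 (50.0%). With O304 23 of 26 were lower than at 21 mo, with a median of −1.61 and 15 lower at that p (57.7%). DESeq2 called 8 of 27 as higher and 10 as lower in the respective comparisons (7.29% and 3.36% of its genes). For limma voom with quality weights it was 16 of 26 in each (52.9% and 41.1% of all genes). With replicate 1 at 21 mo left out, edgeR called 15 of 27 as higher and 17 as lower (25.4% and 23.1% of all genes). With replicate 3 at 21 mo left out, the medians were 0.51 and −0.54. Cdkn1a encodes the cell cycle inhibitor p21. Its level was 11.2, 10.04 and 16.3 CPM at 18 mo, 23.9, 44.3 and 79.8 CPM at 21 mo and 15.7, 12.2 and 14.96 CPM with O304, with all 21 mo libraries above the others and a log2 fold change of 1.98 ± 0.39 (SE, edgeR adjusted p = 0.0626). Col3a1, a fibrillar collagen gene, was at 41.8, 50.1 and 61.7 CPM at 18 mo, 29.7, 265 and 567 CPM at 21 mo and 22.4, 33.7 and 39.7 CPM with O304. It is among the fibroblast markers summed above, and replicate 1 of the 21 mo group was below the 18 mo group. Lox, the collagen cross-linking enzyme, held 2.54, 1.85 and 2.32 CPM at 18 mo, 4.95, 12.8 and 106 CPM at 21 mo and 3.37, 3.40 and 8.98 CPM with O304. Lox had a log2 fold change of 4.21 ± 1.07 (SE, edgeR adjusted p = 0.0775). Adam12, a metalloprotease gene, had log2 fold changes of 0.95 ± 0.56 (SE, adjusted p = 0.301) and −2.14 ± 0.59 (SE, adjusted p = 0.175) by edgeR in the 21 mo and O304 comparisons.

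Of 24 tested extracellular modulators outside the members, 17 were higher and 7 lower at 21 mo, 8 and 1 of them at an unadjusted p under 0.05, and with O304 7 were higher and 17 lower, 0 and 7 of them at that p. DESeq2, which tested 29 of this list, called 6 higher and 1 lower at 21 mo and 2 lower with O304 (7.29% and 3.36% of its genes). For limma voom with quality weights it was 11 higher and 4 lower at 21 mo (52.9% of all genes). With O304 it was 2 higher and 9 lower (41.1%). Without replicate 1 at 21 mo, edgeR tested 26 and called 11 higher and 1 lower (25.4% of all genes), then 1 higher and 8 lower (23.1%). Kcp, a kidney protein that enhances BMP and reduces TGF-β signals, held 13.2, 14.7 and 12.7 CPM at 18 mo, 7.09, 7.39 and 3.39 CPM at 21 mo and 6.63, 8.52 and 7.07 CPM with O304. Every library of both older groups was below every 18 mo library. The log2 fold changes of Kcp against 18 mo were −1.19 ± 0.29 (SE, edgeR adjusted p = 0.0735) at 21 mo and −0.87 ± 0.28 (SE, adjusted p = 0.400) with O304, and it overlaps Gm26627, Atp6v1fnb and Gm26484. Itgav, the integrin αv gene whose product activates latent TGF-β, was at 129, 141 and 114 CPM at 18 mo, 171, 243 and 205 CPM at 21 mo and 176, 141 and 135 CPM with O304, a log2 fold change of 0.69 ± 0.17 (SE, edgeR adjusted p = 0.0775). Htra3, a secreted protease gene, gave 2.51 ± 0.75 (SE, edgeR adjusted p = 0.0940).

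Among 8 other ligands of the superfamily that were tested, 7 were higher and 1 lower at 21 mo, with 2 higher at an unadjusted p under 0.05, and with O304 2 were higher and 6 lower, with 2 lower at that p. DESeq2, which tested 18 of this list, called 1 higher at 21 mo and 1 lower with O304 (7.29% and 3.36% of its genes). For limma voom with quality weights it was 4 higher at 21 mo (52.9% of all genes). With O304 it was 1 higher and 3 lower (41.1%). Without replicate 1 at 21 mo, edgeR called 1 higher at 21 mo (25.4% of all genes) and 2 lower with O304 (23.1%). Gdf15, a stress-induced cytokine, held 11.3, 17.5 and 10.1 CPM at 18 mo, 12.7, 50.4 and 82.6 CPM at 21 mo and 33.0, 19.7 and 17.4 CPM with O304, with replicate 1 of the 21 mo group inside the 18 mo range and a log2 fold change of 1.91 ± 0.58 (SE, edgeR adjusted p = 0.0957). Gdf3, Gdf11 and Bmp15 had log2 fold changes of 1.29 (SE 0.57), 0.83 (SE 0.47) and 0.87 (SE 0.56) in 21 mo against 18 mo, with adjusted p of 0.190, 0.286 and 0.345 by edgeR. Of 25 intracellular regulators, 16 were higher and 9 lower at 21 mo. At an unadjusted p under 0.05 there were 4 and 3 (16% and 12%), near the 14% and 12% of all genes. With O304 13 were higher and 12 lower, 1 and 0 of them at that p (4% and 0%, against 8.27% and 12.4% of all genes). DESeq2, which tested 28 of these regulators, called 1 higher and 2 lower at 21 mo and 0 with O304 (7.29% and 3.36% of its genes). For limma voom with quality weights it was 9 higher and 6 lower at 21 mo (52.9% of all genes). With O304 it was 5 higher and 2 lower (41.1%). Without replicate 1 at 21 mo, edgeR tested 26 and called 2 higher and 4 lower (25.4% of all genes), then 1 higher and 1 lower (23.1%). Stub1, a ubiquitin ligase gene of the chaperone system, was at 42.9, 45.7 and 42.5 CPM at 18 mo, 30.6, 22.8 and 26.5 CPM at 21 mo and 30.4, 25.1 and 32.4 CPM with O304. Both older groups were below all 18 mo libraries, with a log2 fold change of −0.72 ± 0.14 (SE, edgeR adjusted p = 0.0626) at 21 mo, and Stub1 overlaps Jmjd8. Wwp2 gave −0.35 ± 0.11 (SE, adjusted p = 0.0973), Zfyve16 0.44 ± 0.14 (SE, adjusted p = 0.0992) and Trim33 0.33 ± 0.11 (SE, adjusted p = 0.121) by edgeR in the same comparison.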

How the data were processed

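Kidney RNA of 9 mice was sequenced, 1 library per mouse, with groups taken from the labels. The authors aligned reads with HISAT2 2.0.5 and counted them per gene with featureCounts 1.5.0-p3 on GRCm38 (mm10), per the submitters' processing notes, and they deposited the counts unnormalized. The authors computed the deposited FPKM from counts and gene lengths. The log2 fold changes and p-values of the authors' own comparisons in the table (DESeq2 1.20.0), and the authors' mean normalized counts per group, were not used.

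Members and lists were chosen with earlier results of these data known. Of 54532 genes, 15902 passed filterByExpr (minimum count 10, minimum total 15) and were tested in R 4.3.3 with edgeR 4.0.16 (quasi-likelihood test), TMM factors and 3 group means over 9 libraries (6 residual degrees of freedom), two-sided, with Benjamini-Hochberg adjustment over all tested genes. CPM values are TMM-normalized, and standard errors are the absolute log2 fold change divided by the square root of F. P-values measure the spread between these mice. Family shares of FPKM were compared by two-sided exact permutation tests of 3 libraries against 3, with a smallest possible p of 0.1. The smallest adjusted p (Benjamini-Hochberg) of these 66 permutation tests was 0.733. Scripts were tested on simulated data. Members are given in every library where they passed an adjusted p under 0.05 or were among the 3 with the smallest p in their role, and up to 4 genes are named per further list, of which 1 gene is counted in its list but not reported here. Other members named were chosen after their values were seen. Alternatives were DESeq2 1.42.0, RLE and upper-quartile factors, other count filters, the 6 libraries compared, a replicate block, limma voom with quality weights and limma-trend on FPKM (limma 3.58.1), and leaving out each library. Replicate numbers did not pair the libraries, with correlations of deviations from −0.13 to 0.17 between groups. Sequences and motifs were not used here.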

Additional observations from a re-analysis of the deposited data

How the results depend on the processing

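For 21 mo against 18 mo the number of members past the adjusted threshold was 1 in the report. It was 12 in DESeq2 (7.29% of its genes) and 5 with every gene of at least 1 count (2.04% of those genes). It was 0 with only the 6 libraries compared, 0 with the replicate block and 33 in limma voom with sample quality weights. Without 1 library it was 0 to 23. The 23 came without replicate 1 of the 21 mo group, where 25.4% of all genes were called, and limma voom called 52.9% of all genes, with weights of 0.223, 9.12 and 0.132 for replicates 1 to 3 of that group. For O304 against 21 mo, 0 in the report, it was 5 in DESeq2 (3.36%), 1 with every gene (0.0602%) and 26 in limma voom (41.1%). Without 1 library it was 0 to 22, the 22 again without replicate 1 of the 21 mo group (23.1%). For O304 against 18 mo it was 1 in limma voom (2.61%). Counts at an unadjusted p, whose alternatives were added after seeing the data, were 18, 18 and 7 in the 3 comparisons. The shares of all genes at that p were 26.1%, 20.7% and 9.66%. The member counts were 34, 35 and 14 in limma voom, where 58.9%, 50.3% and 22.2% of all genes had such a p. Without 1 library the member counts were 11 to 29, 11 to 32 and 2 to 12. The lowest arose on leaving out 18 mo replicate 2, then 21 mo or O304 replicate 3, and then 18 mo replicate 1. For O304 against 18 mo the count was also 16 with 6 libraries (20.3% of all genes) and 3 on log2(FPKM + 1) (10.2%). The medians kept their direction in every setting for the first 2 comparisons, at 0.15 to 0.51 and −0.53 to −0.16 without 1 library. Of single members with an unadjusted p under 0.05, 1 reversed, Fst in O304 against 18 mo, whose log2 fold change ran from −4.14 to 0.037 without 1 library, the latter when 18 mo replicate 1 was left out. The cause of these differences was not tested. The replicate numbers did not pair the libraries, and with the replicate block the unadjusted counts were 17, 17 and 5 (24.4%, 19.5% and 9.07% of all genes).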
